A study of Rattus norvegicus with 12 samples.

Results

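A set of 8 inflammatory signalling genes was followed across rat hearts. They were the cytokine genes Il1b (ENSRNOG00000004649) and Il6 (ENSRNOG00000010278), the chemokine genes Ccl2 (ENSRNOG00000007159) and Cxcl12 (ENSRNOG00000013589), the toll-like receptor genes Tlr2 (ENSRNOG00000009822) and Tlr4 (ENSRNOG00000010522), and the adhesion molecule genes Icam1 (ENSRNOG00000020679) and Vcam1 (ENSRNOG00000014333). They were chosen by these rat Ensembl IDs, and all 8 were among the 19955 genes of the deposited table. Of the 8, 7 reached a mean signal of at least 1 and were tested with 17091 genes, and Il6 did not. The hearts came from Sprague Dawley rats labelled wild type. One group had a sham operation, which is surgery without an infarct (sham, 2 libraries used of 4 samples labelled). Another had an operation that causes myocardial infarction (MI, 4 libraries), and in the Patch group patches were stitched to the edge of the infarct (4 libraries). The labels do not state the age and sex of the animals, the time after surgery, the sampled region or the patch material, and the series title speaks of left ventricular myocardium. No statement says that each library is a separate animal, so p-values measure the spread between these libraries, part of which may be technical.

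These genes belong to one chain of events in injured tissue. Toll-like receptors on macrophages, endothelial cells and other cells sense microbial products and molecules released by dying cells, and signal through the adaptor MyD88 to the transcription factor NF-kappaB. NF-kappaB raises transcription of cytokines such as interleukin-1 beta and interleukin-6, of chemokines such as CCL2, and of ICAM-1 and VCAM-1, with which blood leukocytes are caught on the vessel wall. CXCL12 stands somewhat apart, as a chemokine made largely constitutively by stromal and endothelial cells that acts through the receptor CXCR4. In an infarct this chain is known to start within the first day and to bring in neutrophils and then monocytes.

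Because NF-kappaB is the textbook regulator of most of these genes, the promoters that RefSeq gives for them (rat build GRCr8) were searched for the kappaB motif in its usual 10-letter form on both strands, in the 250 bases before the start. A promoter was found for 7 of the 8 genes, the exception being Ccl2. A kappaB match was present in 3 of the 7 (Il6, Tlr2 and Vcam1) and in 3.54% of all 33469 promoters, and the AP-1 motif TGANTCA in 0 of the 7 and in 6.34% of all. The form searched begins with GGG, and near matches were not counted in any promoter. The Icam1 stretch holds a near match that differs only in its first letter. The promoters of 4 genes are shown. Vcam1 and Tlr2 rose after infarction and hold a match. For contrast, Tlr4 rose and holds none, and Cxcl12 fell and holds none. Of those not shown, Icam1 rose and holds none, and Il6 holds a match but had 0 to 4 reads. Il1b did not pass the test in MI and holds none. Capitals mark the kappaB matches. The Vcam1 stretch is chr2:206742784-206743033 on the minus strand, the Tlr2 stretch chr2:171504558-171504807 on the minus strand, the Tlr4 stretch chr5:85160997-85161246 on the plus strand and the Cxcl12 stretch chr4:152060531-152060780 on the plus strand, all read 5′ to 3′ toward the gene.
Vcam1: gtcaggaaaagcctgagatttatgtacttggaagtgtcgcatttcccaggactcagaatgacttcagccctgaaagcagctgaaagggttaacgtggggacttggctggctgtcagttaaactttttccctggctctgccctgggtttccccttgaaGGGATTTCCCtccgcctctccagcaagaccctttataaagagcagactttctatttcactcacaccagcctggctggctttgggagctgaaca
Tlr2: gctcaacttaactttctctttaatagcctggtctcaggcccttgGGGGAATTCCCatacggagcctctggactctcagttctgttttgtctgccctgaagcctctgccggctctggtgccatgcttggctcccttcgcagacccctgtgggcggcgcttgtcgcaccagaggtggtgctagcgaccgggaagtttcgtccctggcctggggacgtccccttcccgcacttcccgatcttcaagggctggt
Tlr4: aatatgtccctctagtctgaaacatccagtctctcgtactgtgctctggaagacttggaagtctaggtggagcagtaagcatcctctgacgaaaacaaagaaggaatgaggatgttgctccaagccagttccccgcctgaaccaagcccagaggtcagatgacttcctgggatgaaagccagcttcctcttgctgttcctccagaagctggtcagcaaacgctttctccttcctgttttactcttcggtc
Cxcl12: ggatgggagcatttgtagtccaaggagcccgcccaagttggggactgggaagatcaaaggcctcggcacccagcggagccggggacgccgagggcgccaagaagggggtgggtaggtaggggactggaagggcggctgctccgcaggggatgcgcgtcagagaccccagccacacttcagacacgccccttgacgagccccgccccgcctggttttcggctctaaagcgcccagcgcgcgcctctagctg
In Vcam1 the match lay at bases -93 to -84 before the start, and both strands fitted the motif there. In Tlr2 the matches overlapped, at bases -206 to -197 and -205 to -196. A match describes these letters only and is no measured binding site.

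Recovered depth was 11420710 to 14110864 reads per library, and 1 read was worth 0.790 to 1.12 units of signal, the normalized read count of the deposited table. MI2 stood apart over all genes. It had 5474 genes at 0 reads against 2400 to 3335 in the other 9 libraries, and 169 genes with exactly 1 read against 632 to 979. The mean number of genes at a count from 8 to 18, divided by that at a count from 2 to 6, was 1.30 for MI2 against 0.283 to 0.309 elsewhere, so MI2 is short of low counts. For the 7 tested genes of this set, MI162 was the highest MI library and P699 the highest Patch library for all 7, and MI2 was the lowest MI library for 6, the exception being Cxcl12. These ranks come from the genes reported on, so leaving out MI2 or P699 had to widen the mean difference between MI and Patch for the genes that were lower in Patch, and leaving out MI162 had to narrow it. The table's IDs could not be paired with symbols beyond these 8 genes, so markers of leukocytes, endothelium, fibroblasts and cardiomyocytes were not analysed here. In whole tissue, more cells of a type and more RNA per cell cannot be told apart.

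**Figure D1:**
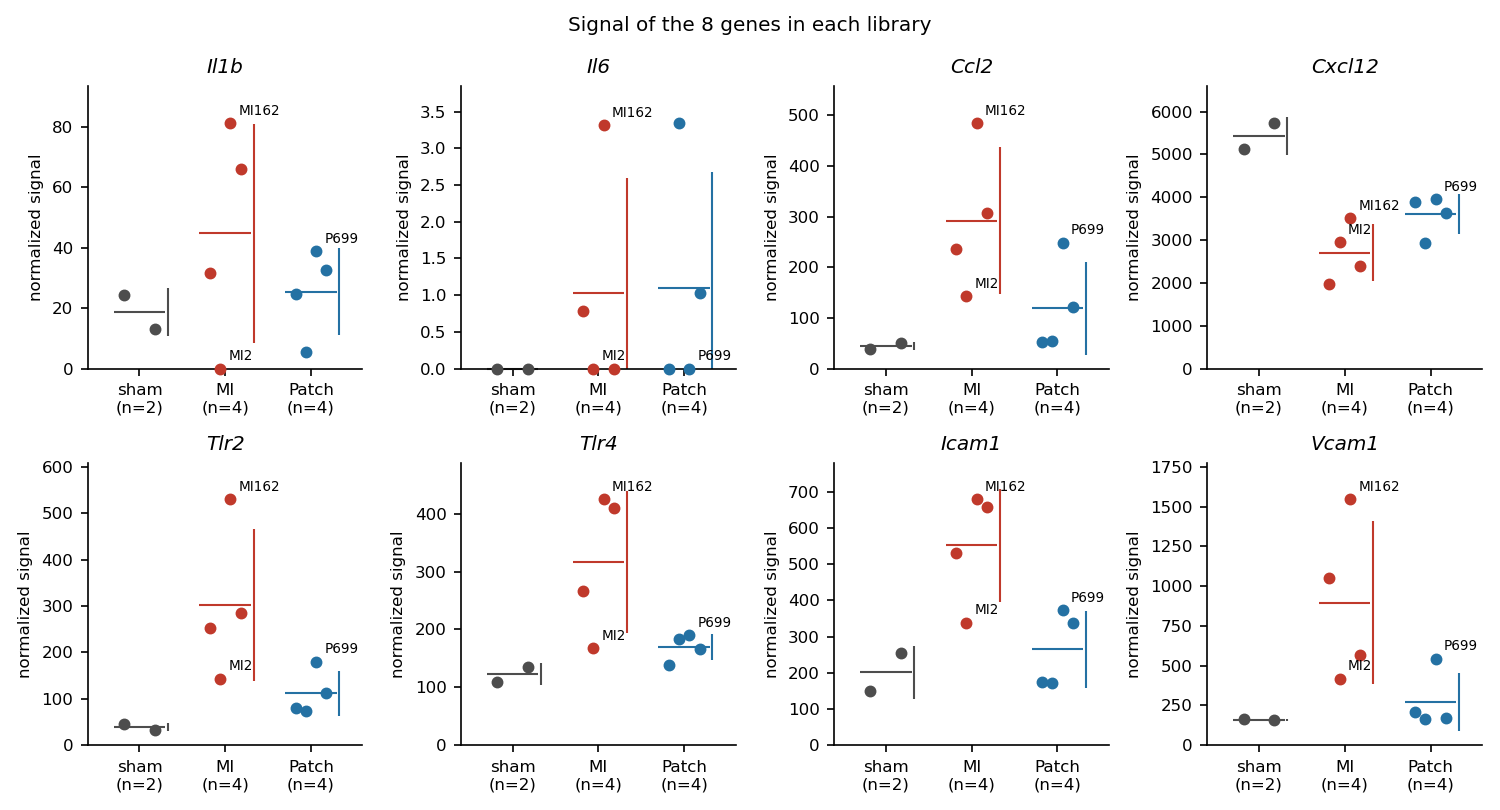
Normalized signal of each of the 8 genes (y axis, linear from 0, own scale per gene) in the sham, MI and Patch libraries (x axis). Points are libraries, horizontal lines group means and vertical lines 1 SD on either side (drawn no lower than 0). Ccl2, Tlr2, Tlr4, Icam1 and Vcam1 were higher in each MI library than in both sham libraries, Cxcl12 was lower, and for the 5 genes that were higher, of the named libraries MI2 is the lowest and MI162 the highest of MI, and P699 is the highest of Patch.

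MI was compared with sham to find which of these genes differ after infarction. Ccl2, Tlr2, Tlr4, Icam1 and Vcam1 rose and Cxcl12 fell, while Il1b did not pass the test and Il6 was too low to test. Of the 7 genes tested, 5 were higher and 1 was lower in MI at a limma adjusted p under 0.05, where 7.30% of all genes tested were called higher and 8.12% lower. The median log2 difference of the 7 genes was 1.44, and that of all genes tested was 0.01. The genes were chosen with earlier results of these data known, so these medians are a description and no test of the set. The same 6 genes were called without MI2, with 29.0% of all genes called in either direction, against 15.4% with it. The calls rested on both sham libraries, the 2 columns named for this group of 4 labelled samples. Without sham1 or without sham2, with the lone sham library assumed to vary like the other groups, 0 of the 6 passed (limma adjusted p 0.0735 to 0.266 and 0.0882 to 0.137), and all 6 kept their direction. With only MI and sham in the fit, 0 passed as well (limma adjusted p 0.0506 to 0.120), with 177 called over all genes against 2636 with all 3 groups. Calls over all genes also fell without either sham library, so the loss was not limited to these 6 genes.

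Among the chemokines, Ccl2, which draws monocytes out of the blood through the receptor CCR2, was at 38.9 and 49.6 units of signal in sham and at 235.3, 142.2, 484.9 and 306.1 in MI1, MI2, MI162 and MI165. All 4 MI libraries lay above both sham libraries, as they did for 5 of the 7 genes, against 17.1% of all genes tested. The rise was 2.57 on the log2(signal + 1) scale (SE 0.617, limma adjusted p 0.0211), a 5.93-fold difference whose 95% interval ran from 2.32 to 15.2. It was larger than that of 97.9% of genes tested. Without MI165 the difference was 2.50 and did not pass (limma adjusted p 0.0584, across the alternatives 0.000465 to 0.412).

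Cxcl12 moved the other way. It was at 5121.8 and 5736.9 in sham and at 1982.8, 2948.7, 3517.0 and 2387.6 in MI1, MI2, MI162 and MI165, so that no MI library reached the sham level, which held for 18.6% of all genes tested. The log2 difference was -1.03 (SE 0.226, limma adjusted p 0.0161), a 2.05-fold fall. With 2511 to 4236 reads per MI library, counting error was small for this gene, and the spread between libraries set its precision. MI162, the highest MI library for the other 6 tested genes, was also the highest for Cxcl12.

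The toll-like receptors rose by different amounts. Tlr2, a receptor for bacterial lipoproteins that pairs with other toll-like receptors, was at 44.4 and 33.1 in sham and at 252.7, 143.1, 530.5 and 284.1 in MI1, MI2, MI162 and MI165. Each MI library was above both sham libraries, and the log2 difference was 2.79 (SE 0.480, limma adjusted p 0.00809), or 6.94-fold. This was the largest difference among the 7 genes with all libraries, while without sham2 that of Ccl2 was larger (2.74, against 2.59 for Tlr2). Tlr4, the receptor for endotoxin, was at 108.8 and 135.6 in sham and at 266.1, 167.3, 425.1 and 410.3 in the MI libraries in the same order. The groups again did not overlap, with MI2 nearest to sham, and the log2 difference was 1.28 (SE 0.340, limma adjusted p 0.0295), or 2.43-fold. The Tlr4 difference was 1.11 without MI162 (limma adjusted p 0.0669) and 1.13 without MI165 (0.0710), and neither passed (across the alternatives 0.000815 to 0.476).

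Because each library measures both receptors, their ratio was also taken within libraries, as a description of pairs picked with the values in view. The log2 ratio of Tlr2 to Tlr4 signal was -1.29 and -2.04 in sham and -0.53 to 0.32 in MI, without overlap. In Patch it was -1.31 to -0.08, between and across the other groups. The ratio depends on the lengths of the genes, so only its change between libraries can be read.

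Both adhesion genes rose. Vcam1, whose product holds leukocytes through the integrin alpha-4 chain, was at 162.1 and 154.4 in sham and at 1053.4, 416.3, 1545.1 and 564.1 in MI1, MI2, MI162 and MI165. The sham libraries lay close together and all MI libraries lay above them. The log2 difference was 2.31 (SE 0.547, limma adjusted p 0.0204), or 4.95-fold. Icam1, whose product binds the leukocyte integrins with the beta-2 chain, was at 149.9 and 253.6 in sham and at 529.8, 338.3, 679.2 and 659.4 in the MI libraries in the same order. Its sham libraries differed more from each other, and the gene rose by 1.44 in log2 terms (SE 0.391, limma adjusted p 0.0314), or 2.72-fold. The Icam1 difference stayed near that size without MI1 (limma adjusted p 0.0525), and was 1.33 without MI162 (0.0729) and 1.34 without MI165 (0.0823), and none of these passed (across the alternatives 0.00439 to 0.439). Within libraries, the log2 ratio of Vcam1 to Icam1 was -0.72 and 0.11 in sham and -0.23 to 1.19 in MI, so the groups overlapped.

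The interleukins gave little. Il1b, the cytokine released after cleavage by the inflammasome, had 22 and 12 reads in sham and 40, 0, 98 and 81 reads in MI1, MI2, MI162 and MI165. In signal this was 24.4 and 13.2 in sham and 31.6, 0, 81.4 and 65.9 in MI, and by counting error alone the 0 of MI2 would allow up to 3 reads, or 2.79 units. Since MI2 is short of low counts, that limit may be too low for this library. The other 3 MI libraries lay above both sham libraries and MI2 below them. The log2 difference of 0.11 (SE 1.49, limma adjusted p 0.971) did not pass, and its 95% interval from -3.17 to 3.40 is too wide to show a change or its absence. Without MI2 it was 1.57 and still did not pass (limma adjusted p 0.151, across the alternatives 0.151 to 0.993).

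Il6, a cytokine of the acute phase response, was at the limit of this depth in every group. It had 0 reads in both sham libraries, 1, 0, 4 and 0 reads in MI1, MI2, MI162 and MI165, and 0, 3, 0 and 1 reads in P695, P697, P699 and P985. No difference was detectable at this depth. In a fit of 19874 genes without a filter on low values, the limma adjusted p of Il6 was 0.578 between MI and sham, 0.972 between Patch and MI and 1 between Patch and sham.

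**Figure D2:**
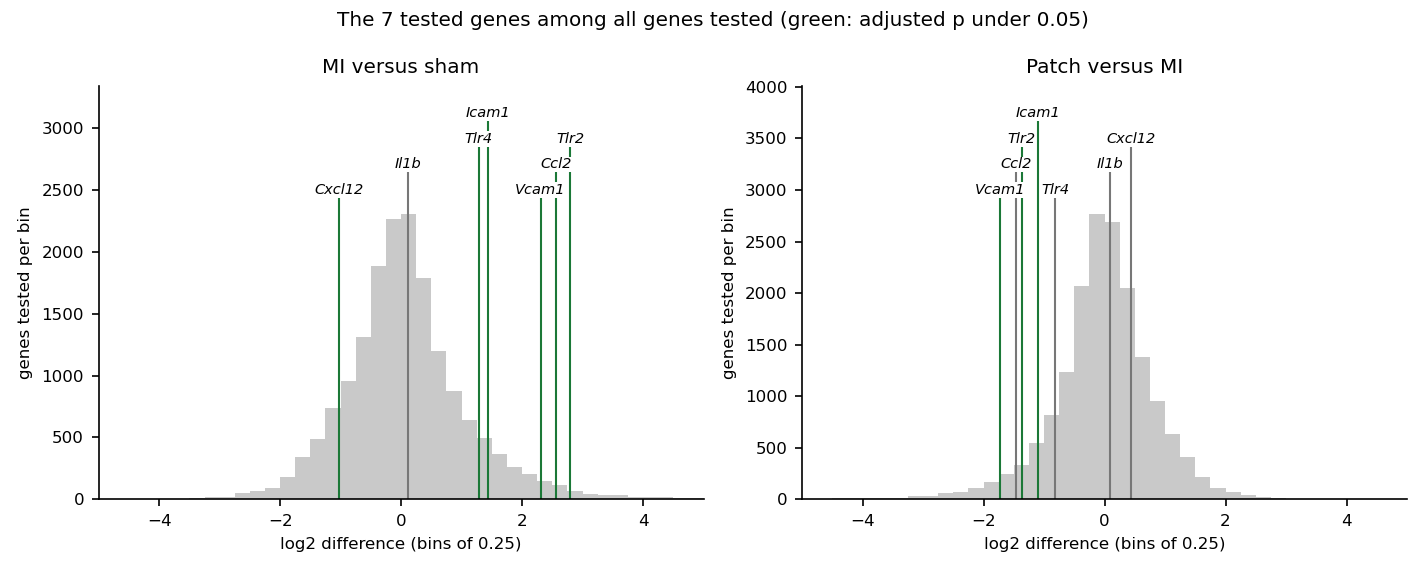
Number of genes tested (y axis, linear) by log2 difference (x axis, bins of 0.25) for MI versus sham and Patch versus MI, with the 7 tested genes as labelled vertical lines, green where the limma adjusted p was under 0.05. The heights of the lines carry no value. Tlr2, Ccl2 and Vcam1 lie in the upper tail for MI versus sham and Vcam1, Ccl2 and Tlr2 in the lower tail for Patch versus MI, with Il1b near 0 in both.

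Patch was compared with MI to find which genes differ with the patch. Tlr2, Icam1 and Vcam1 were lower in Patch at a limma adjusted p under 0.05. Of the 7 genes tested, these 3 were called lower and 0 higher, where 5.45% of all genes tested were called lower and 7.72% higher. The median log2 difference of the 7 genes was -1.10, against 0.00 over all genes tested, again a description and no test of the set. The comparison uses the same MI libraries as MI versus sham, so the opposite signs in the 2 comparisons are not independent.

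These calls depended on single libraries in both directions. Without MI2, 5 genes were called lower (Ccl2, Tlr2, Tlr4, Icam1 and Vcam1), with 28.0% of all genes called in either direction against 13.2% with all libraries. Without P699 there were 4 (Ccl2, Tlr2, Icam1 and Vcam1), with 11.9%. Without MI162 there were 0, with 3.76%. Leaving out MI1, MI165, P695, P697, P985 or sham2 also gave 0 calls, and without sham1 only Vcam1 was called. Over all genes, 1650, 1161, 209, 609 and 292 were called without MI1, MI165, P695, P697 and P985, against 2251 with all libraries. Calls over all genes fell without sham1 or sham2 too. The sham libraries enter this comparison only through the shared spread. With only MI and Patch in the fit, 0 passed (limma adjusted p of the 3 genes 0.0504 to 0.0618), with 1422 called over all genes. Without a filter on low values only Vcam1 passed, with 1917 called over all genes. In all of these fits the 5 genes stayed lower in Patch.

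Vcam1 was at 205.5, 161.9, 544.0 and 170.9 in P695, P697, P699 and P985. Of these, 3 lay near the sham values of 162.1 and 154.4, and P699 lay within the MI range of 416.3 to 1545.1. The log2 difference from MI was -1.73 (SE 0.446, limma adjusted p 0.0313), a 3.32-fold lower level. It was -2.04 without MI2, -2.13 without P699 and -1.41 without MI162 (limma adjusted p 0.00951, 0.0167 and 0.0880, across the alternatives 0.00284 to 0.0981, the highest without P695). Icam1 was at 175.2, 170.8, 373.7 and 337.7 in the Patch libraries in the same order. Of these, P695 and P697 lay within the sham values, P985 lay just below MI2 at 338.3, and P699 above it. The log2 difference was -1.10 (SE 0.319, limma adjusted p 0.0450), or 2.14-fold lower, and it was -1.32 without MI2, -1.30 without P699 and -0.98 without MI162 (limma adjusted p 0.0137, 0.0339 and 0.125, across the alternatives 0.0127 to 0.140).

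Tlr2 was at 79.7, 73.7, 180.3 and 111.5 in P695, P697, P699 and P985. P699 alone exceeded the lowest MI library, MI2 at 143.1. The log2 difference was -1.37 (SE 0.392, limma adjusted p 0.0430), or 2.59-fold lower, and it was -1.68 without MI2, -1.63 without P699 and -1.05 without MI162 (limma adjusted p 0.00861, 0.0299 and 0.115, across the alternatives 0.00382 to 0.130). Tlr4 was at 139.3, 183.1, 190.3 and 165.8 in the same order, the narrowest spread of the 5 genes within Patch. Its log2 difference of -0.81 (SE 0.278, limma adjusted p 0.0748) did not pass in the main fit. With all libraries it passed under scaling to total reads (limma adjusted p 0.0452), with limma sample weights (0.00281) and in DESeq2 (adjusted p 0.0169). Only MI2, at 167.3, fell within the Patch range, and without MI2 the difference was -1.09 (limma adjusted p 0.00485). Without P699 it was -0.87 and without MI162 -0.64, and neither passed (limma adjusted p 0.0934 and 0.199, across the alternatives 0.00281 to 0.199).

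Ccl2 was at 51.7, 53.6, 248.1 and 120.7 in P695, P697, P699 and P985. The first 2 lay just above the sham values of 38.9 and 49.6, and P699 lay within the MI range. The log2 difference from MI was -1.46 (SE 0.504, limma adjusted p 0.0766) and did not pass in the main fit. With all libraries it passed with limma sample weights (limma adjusted p 0.0156) and in DESeq2 (adjusted p 0.0488). It was -1.92 without P699 (limma adjusted p 0.0258) and -1.76 without MI2 (0.0317), and -1.18 without MI162, where it did not pass (0.203, across the alternatives 0.0156 to 0.210). Cxcl12 was at 3890.5, 2932.5, 3959.7 and 3636.8 in the Patch libraries, overlapping MI. Its log2 difference of 0.44 (SE 0.185, limma adjusted p 0.137) did not pass, nor did it in any of the 21 alternatives. The log2 ratio of Ccl2 to Cxcl12 signal within a library was -7.04 and -6.85 in sham, -4.37 to -2.86 in MI and -6.23 to -4.00 in Patch, with MI2 the lowest of MI and P699 the highest of Patch.

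Il1b was at 24.7, 5.58, 38.9 and 32.7 in P695, P697, P699 and P985, with 5 to 39 reads. Its log2 difference from MI was 0.09 (SE 1.22, limma adjusted p 0.970), set by the 0 of MI2. Without MI2 the difference was -1.37, and it did not pass there either (limma adjusted p 0.136, across the alternatives 0.136 to 0.998).

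Overlap between the libraries shows the same dependence. With all libraries, 0 of the 7 genes were lower in every Patch library than in every MI library, and 7.79% of all genes tested were. Without MI2, 4 of the 7 did not overlap and were lower in Patch (Tlr2, Tlr4, Icam1 and Vcam1), with 16.8% of all genes. MI2 was the lowest MI library for each of these 4, so its removal could only reduce their overlap.

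**Figure D3:**
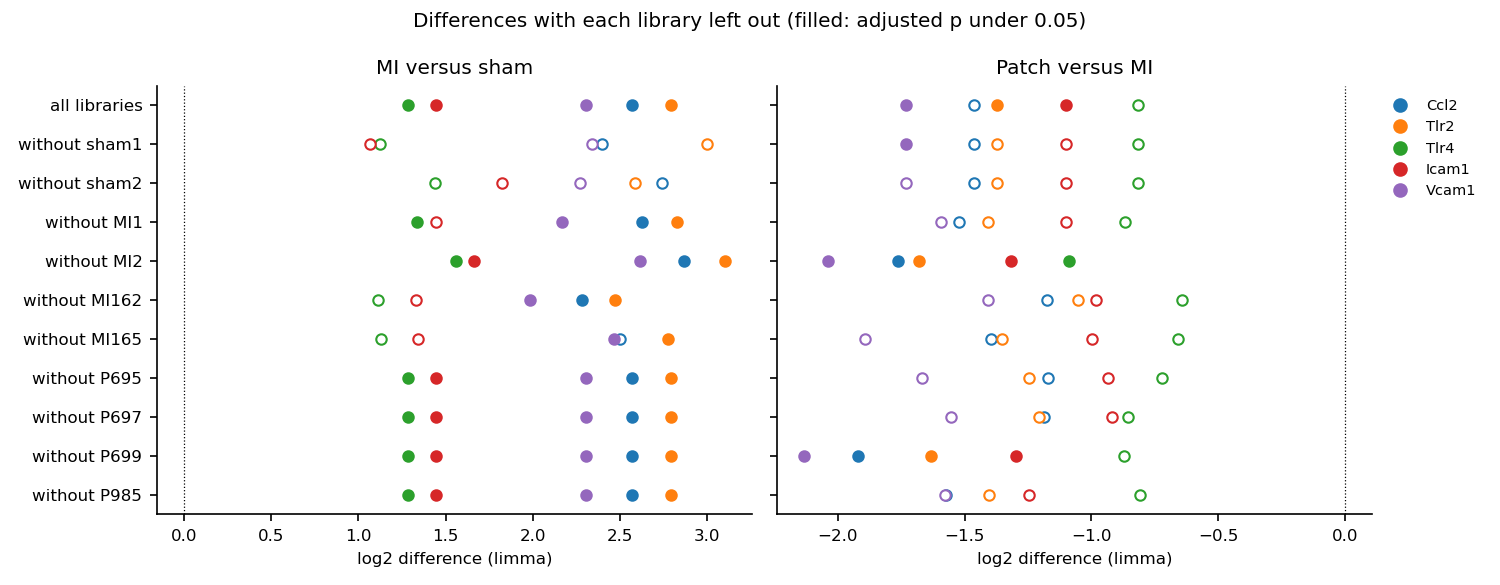
Limma log2 difference (x axis) of Ccl2, Tlr2, Tlr4, Icam1 and Vcam1 with all libraries and with each library left out in turn (y axis), for MI versus sham and Patch versus MI. Filled points have an adjusted p under 0.05. All points stay on one side of 0, the MI versus sham points are open without either sham library, and the Patch versus MI points are filled for 5 genes without MI2 and for 0 genes without MI1, MI162, MI165, P695, P697, P985 or sham2.

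Patch was compared with sham to find which genes still differ from surgery without an infarct. None of the 7 genes passed in limma, where 0% of all genes tested were called and the smallest adjusted p over all genes was 0.322. At an unadjusted p under 0.05 there were 524 of all genes, Tlr2 and Cxcl12 among them, edgeR also called 0 genes and DESeq2 15, none of them in this set. Tlr2 was 1.42 higher in Patch on the log2 scale (SE 0.480, 95% interval 0.36 to 2.48) and Cxcl12 was 0.60 lower (log2 difference -0.60, SE 0.226, 95% interval -1.10 to -0.10), both with a limma adjusted p of 1. Every Patch library lay above both sham libraries for Ccl2, Tlr2 and Tlr4, which held for 9.18% of all genes tested, and below both for Cxcl12, which held for 9.37%. For Tlr4 the margin was small, from 135.6 in sham2 to 139.3 in P695. The 95% intervals of the log2 differences of Icam1 (0.34, from -0.51 to 1.20) and Vcam1 (0.57, from -0.63 to 1.78) included 0. Without P699 the differences from sham were smaller, at 0.65 for Ccl2 against 1.11 with it, 1.16 for Tlr2, 0.15 for Icam1 and 0.17 for Vcam1, and 0 of the 7 passed there either. The SEs and intervals rest on a spread shared with the MI libraries. With only Patch and sham in the fit, 0 genes were called. The SE was then smaller for Il1b, Cxcl12, Tlr2, Tlr4 and Vcam1 (for Tlr4 0.178 against 0.340). It was larger for Ccl2 and Icam1 (for Ccl2 0.684 against 0.617). With 2 sham libraries and this shared spread, these values do not show that Patch and sham were alike.

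**Figure D4:**
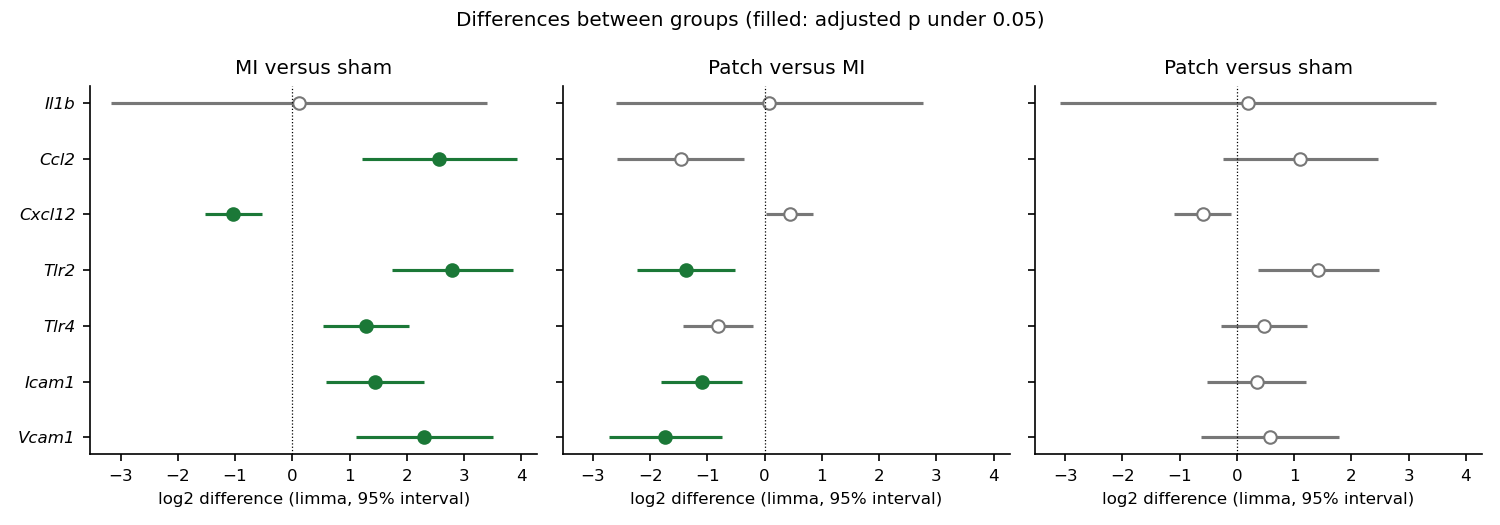
Limma log2 difference (x axis) with its 95% interval for the 7 tested genes (y axis) in the comparisons MI versus sham (left), Patch versus MI (middle) and Patch versus sham (right). Filled green points have an adjusted p under 0.05. The first panel has 5 genes called higher and 1 lower, the second 3 called lower and the third none, and the interval of Il1b spans 0 widely in each.

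The same libraries were often highest or lowest in their group, while the order of the others varied by gene. MI162 was the highest MI library for all 7 and the highest of the 10 libraries for 6 of them, the exception being Cxcl12. P697 was the lowest Patch library for 5 of the 7. P699 lay above both sham libraries for all 6 genes other than Cxcl12, and so did P985, while P697 did for 3 of the 6. The distance from the sham mean in P699 was 2.47 for Ccl2, 2.20 for Tlr2 and 1.78 for Vcam1 on the log2 scale. In MI2 it was 1.67, 1.87 and 1.39, below P699 for each of these 3.

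**Figure D5:**
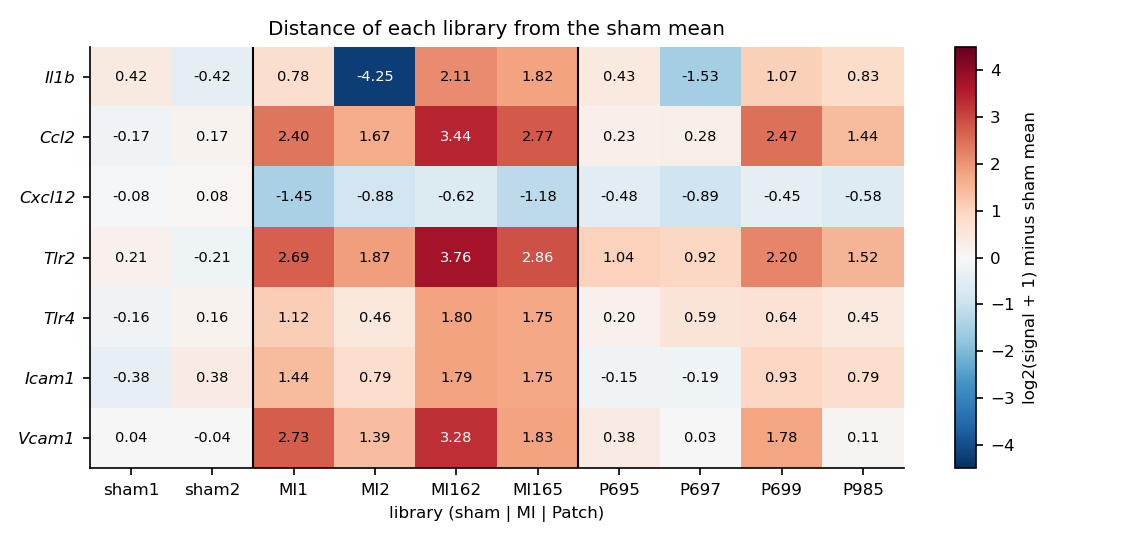
Distance of each library (columns, sham then MI then Patch) from the sham mean for each tested gene (rows), as log2(signal + 1) minus the sham mean, printed in each cell and coloured red for higher and blue for lower. MI162 has the largest rises, MI2 has the smallest rises of the MI libraries and P699 the largest of the Patch libraries, and Cxcl12 is lower than the sham mean in all 8 MI and Patch libraries.

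The column names gave one further division, picked after the values were seen. Both sham libraries and MI1 and MI2 are numbered with 1 digit, and MI162, MI165 and the Patch libraries with 3 digits. Whether this marks a difference in handling is not stated. Within the names of 1 digit, Ccl2, Tlr2, Tlr4, Icam1 and Vcam1 (5 of 7, against 23.9% of all genes tested) were higher in both MI libraries than in both sham libraries, and Cxcl12 was lower (26.3%). Within the names of 3 digits, 6 of the 7 were lower in all 4 Patch libraries than in both MI libraries, the same 5 and Il1b, against 27.2% of all genes. The MI side there was MI162 and MI165 alone, without MI1 and MI2. MI162 and MI165 ranked 1 and 2 of all libraries for Il1b, Ccl2, Tlr2, Tlr4 and Icam1. For Vcam1 they ranked 1 and 3, with MI1 between them. The separation from Patch therefore followed from which libraries were kept and supports nothing further. Sham and Patch share no style of name, so a difference in handling and the patch cannot be told apart in that comparison.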

How the data were processed

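Polyadenylated RNA was selected from heart RNA and sequenced, per the labels' protocols, which name no molecular identifiers. The submitters' processing notes name HISAT2, SAMtools, featureCounts, DESeq2 and the build rn6, without roles or versions. The values are a normalized signal per gene that the authors deposited, counts divided by 1 factor per library, which removes any change shared by most genes. Dividing by each library's step gave whole reads (within 0.01 of a whole number) for 100% of values. The step of P699 lies so near 1 that an automatic check did not decide it.

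Columns were assigned by name. The labels list 4 sham samples, as the design had assumed, and 2 columns carry that name. Another 2 columns are named as controls (ctrl), match no label and were not used. Whether they hold the other 2 sham samples is not given in the sources used here. Strand use in counting is not given in the sources used here, so overlapping or antisense genes could share reads. The symbols of the 8 IDs came with the choice of genes. The gene table used here matched 0 IDs, so that pairing was not checked, and the preset pathway and marker lists were not analysed here. The members and lists were chosen with earlier results of these data known. The rule for named genes was all 8 members and the genes most like them.

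Genes averaging at least 1 unit of signal were tested with limma 3.58.1 (R 4.3.3, trended eBayes, all 3 groups in one fit) on log2(signal + 1), which understates changes of low genes. Adjusted p-values are Benjamini-Hochberg over all 17091 genes. edgeR 4.0.16 and DESeq2 1.42.0 on recovered reads were alternatives. Python 3.11.15, pandas 2.3.3 and matplotlib 3.10.9 served for the rest. No libraries of a group were duplicates (chi-square per gene at least 16.7). Limits for 0 reads (3 reads) cover counting error only and may be too low in MI2. On simulated counts with 200 genes changed 4-fold, limma recovered 66.5% for MI versus sham (6 false calls among 16783 genes), 76% for Patch versus MI (12 among 16768) and 66.5% for Patch versus sham (7 among 16787). In the same order, DESeq2 recovered 78%, 88% and 79.5%, with 46, 60 and 52 false calls. edgeR recovered 66.5%, 77% and 66.5%, with 5, 11 and 7. The changed genes were drawn from those with a mean signal of at least 10. Each gene was given the same spread in all libraries. In the deposited values the chi-square per gene was 61.7 to 188.7 between MI libraries and 16.7 to 50.1 between Patch libraries. The shortage of low counts in MI2 was not simulated either, so these rates may not hold for the deposited libraries.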

Additional observations from a re-analysis of the deposited data

Results flagged for a closer look

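Vcam1 in P699 lay far from the other Patch libraries on the linear scale of signal. It was at 544 where the next had 205.5, a gap of 0.886 of the group's range. The rule was not applied to log2(signal + 1), the scale of the tests. There the distance from the sham mean was 1.78 in P699, and 0.38, 0.03 and 0.11 in P695, P697 and P985. Vcam1 in P699 was the only value flagged by the rule among 16 sets of 4 values (the MI and the Patch libraries for each of the 8 genes). Chance gives about 0.8. P699 was also the highest Patch library for Ccl2, Tlr2, Tlr4, Icam1, Il1b and Cxcl12. Its recovered depth was 12565137 reads against 11420710 to 12564693 in the other Patch libraries, and it had 2781 genes at 0 against 3007 to 3269. Their part in the result was not tested.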

How the results depend on the processing

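Each result was recomputed under 21 alternatives, and MI versus sham under 23. The fit without MI2 and P699 and both fits on sham1, sham2, MI1 and MI2 were chosen after seeing the data. MI2 and P699 rank lowest and highest in their groups for most of these genes. The fit without them therefore had to widen the difference between MI and Patch. It supports nothing, and the ranges of adjusted p across the alternatives leave it out. In MI versus sham the ranges keep the fits on sham1, sham2, MI1 and MI2. The upper ends for Ccl2 (0.412), Tlr4 (0.476) and Icam1 (0.439) are limma adjusted p of the replicate block on these 4 columns. Only these 4 columns carry numbers that are also replicate numbers of the labels, so Patch had no paired fit. Nothing states that the numbers 1 and 2 pair animals, and same-numbered libraries did not deviate together (Pearson r 0.024 across 17091 genes, which are not independent). In limma on these 4 libraries, 0 genes were called between MI and sham with the numbers as a replicate block (2071 at an unadjusted p under 0.05) and 0 without the block (2727), so 0 of the 7. Il1b was -1.74 in both fits. Of the 7 genes, 6 called in MI versus sham became 0 with only the 2 groups compared, and 0 to 6 when one library was left out. Of the 7, 3 called in Patch versus MI became 1 without the filter, 4 with scaling to total reads (adding Tlr4), 5 in DESeq2 and 2 in edgeR (losing Icam1). The count was 5 with sample weights, 5 without MI2 and P699, 0 with only the 2 groups, and 0 to 5 when one library was left out. In Patch versus sham 0 were called under each alternative. Over all genes, the 2636 called between MI and sham became 5679 with sample weights, 177 with the 2 groups alone, 4799 without MI2 and P699, and 7 to 4961 when one library was left out (7 without sham1, 24 without sham2). The 2251 of Patch versus MI became 5383, 1422 and 4714 in the same order, 3701 in DESeq2, and 209 to 4780 when one library was left out. Patch versus sham gave 10 with sample weights, 15 in DESeq2, and 0 to 2 when one library was left out. Fits with fewer libraries or groups use fewer samples, and for the other changes the cause was not tested.

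Directions of the 6 genes called in MI versus sham held under all alternatives in that comparison and in Patch versus MI. The Icam1 difference between Patch and sham changed sign without sham1 (-0.032, with -0.032 to 0.72 over the fits without one library). Il1b, which passed in no alternative, changed sign often. In MI versus sham it was -0.11 with a pseudocount of 0.5 and -0.55 to 1.57 when one library was left out. In Patch versus MI it was -0.28 with a pseudocount of 5, -0.035 with quantile scaling, -0.074 with total reads, -1.13 with sample weights, -0.81 in edgeR, -0.81 in DESeq2, -1.66 without MI2 and P699, and -1.37 to 0.75 when one library was left out. In Patch versus sham it was -0.0091 with quantile scaling, -0.090 without MI2 and P699, and -0.22 to 0.78 when one library was left out. Scaling to total reads moved the median log2 difference of all genes to 0.24 between MI and sham and to -0.17 between Patch and MI. It made 73.5% of MI versus sham calls higher, against 47.3%, and 30.2% of Patch versus MI calls, against 58.6%. With only the 2 groups, 86.4% of MI versus sham calls were higher. Depth limits Il6 (0 to 4 reads) and Il1b (0 to 98 reads) most.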

Other observations

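Over the 10 libraries, the gene whose log2(signal + 1) pattern was most like that of Tlr4 among 13935 genes compared was ENSRNOG00000026821, with a Pearson r of 0.987, and that most like Ccl2 was ENSRNOG00000008409, with 0.984. The values are a description, since the 3 groups differ in level and the libraries share their scaling. No table used here pairs these IDs with symbols.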
